A study of Mus musculus with 3 samples.

Results

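Very short exons leave little room for a splicing regulator, and the contacts of Tra2β with them were measured here in testes of adult wild type mice. The exons were internal exons, neither first nor last, that lie wholly in coding sequence, measure 50 nt or less and belong to the canonical transcript of a protein-coding gene in the GENCODE vM39 annotation. There were 7042 of them in 4325 genes, among 165996 internal exons in all, and the 57755 other internal exons of the same transcripts served as the comparison. Their length was 3 to 50 nt with a median of 40 nt, and 1026 measured 27 nt or less. Most genes with such an exon had only 1 (2928 genes), while *Col7a1* had 49, *Cdcp3* 39 and *Col16a1* 30.

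Tra2β is an SR-like splicing activator that contacts purine-rich RNA, with GAA as the core of its known site, and usually favours inclusion of the exon it contacts. An internal exon is recognised through its 3′ splice site, its 5′ splice site and enhancer or silencer sequences between them. In a very short exon the space for enhancers is small, and microexons, the shortest of them, are best known from neurons. The testis is another tissue with a very large repertoire of splice isoforms.

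Contacts were read by iCLIP, in which ultraviolet light links a protein to the RNA it touches, an antibody recovers the complex and each unique cDNA marks 1 contact at the resolution of a nucleotide (a crosslink). The 3 libraries, replicates 1 to 3, form 1 group: whole testis of adult wild type mice, labelled as mixed cells, precipitated with a polyclonal antibody to Tra2β. No input, unspecific antibody or knockout library was used here, so each comparison was made inside a library.

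The libraries held 348033, 619571 and 488719 crosslinks. All 10 germ cell markers examined had crosslinks on their own strand in each library, and together they took 3014, 1117 and 3730 CPM (counts relative to all crosslinks of a library), against 282, 137 and 229 for 5 Sertoli cell markers, 115, 74.2 and 115 for 5 Leydig cell markers and 23, 21 and 32.7 for 4 peritubular cell markers. Replicate 2 had the most crosslinks and the lowest level of each marker group. Single markers of a group went in different directions. *Spag6l* had 51, 211 and 84 crosslinks and *Wt1* 27, 52 and 31, while *Insl3* had 18, 0 and 22 and *Clu* 54, 16 and 63. The study states that germ cells were set free by mincing the testes before irradiation. In such mixed cells, fewer cells of a type, less RNA per cell and less contact by Tra2β cannot be told apart. Replicate 2 also stood apart in several results below, and the part of cell composition or library quality in this was not tested. Values without replicate 2 are therefore given where they matter.

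The sequences below are those of the exons with the most crosslinks and of 2 pairs of related exons to which the results return. They are exon sequences of GRCm39 read 5′ to 3′ on the strand of the gene, and capitals mark every GAA.
1700019A02Rik exon 3: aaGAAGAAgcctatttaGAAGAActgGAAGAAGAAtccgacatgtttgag
Nasp exon 2: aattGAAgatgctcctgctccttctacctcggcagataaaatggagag
4933409G03Rik exon 21: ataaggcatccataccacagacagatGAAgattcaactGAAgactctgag
Potefam1 exon 64: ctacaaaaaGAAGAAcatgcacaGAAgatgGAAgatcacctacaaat
Ddx4 exon 12: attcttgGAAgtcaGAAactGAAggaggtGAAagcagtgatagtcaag
Pcbp2 exon 4: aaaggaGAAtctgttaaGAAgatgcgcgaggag
Pcbp3 exon 5: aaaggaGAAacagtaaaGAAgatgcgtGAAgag
Ybx1 exon 3: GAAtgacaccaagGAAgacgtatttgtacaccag
Ybx3 exon 3: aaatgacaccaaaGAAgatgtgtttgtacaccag
Tsbp1 exon 12: ctgtaatacctgtggacatat
Spata6 exon 3: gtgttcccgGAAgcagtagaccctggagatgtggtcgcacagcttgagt

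As sequence, the short exons differed from the other internal exons of their transcripts before any crosslink was counted. They were 56.1% purine against 52.9%, and held 31.1 GAA per kb against 24.9. Both splice sites were of a more favourable composition: the intron from 20 to 4 nt before the exon was 78.4% pyrimidine against 74.8%, and the intron after it opened with GTAAGT or GTGAGT at 42.3% of short exons against 29.1%. The neighbouring introns were a little shorter, with medians of 1092.5 and 1033 nt against 1314 and 1233 nt. Another annotated transcript of the gene skips 37.9% of the short exons, against 23.4% of the others. A length divisible by 3, which keeps the reading frame when an exon is skipped, was found in 44.1% and 41.2%. These are properties of the annotation and the genome, given as a description.

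Short exons received 632, 889 and 1313 crosslinks in replicates 1 to 3, which is 0.182%, 0.143% and 0.269% of the libraries. A crosslink in at least 1 library was seen in 1233 exons (17.5%), against 34.2% of the longer internal exons, which offer more nucleotides. Only 98 exons had a crosslink in each of the 3 libraries, 692 had exactly 1 in all and 33 had 10 or more. Per kilobase, short exons had 2.35, 3.30 and 4.87 crosslinks and the others 2.35, 2.48 and 4.85.

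Because genes differ in abundance, the expected number for a short exon was set as its length times the crosslinks per nt of the longer internal exons of its own transcript in the same library. Observed over expected was then 1.05 (95% Poisson interval 0.97 to 1.14) in replicate 1, 1.31 (1.23 to 1.40) in replicate 2 and 1.05 (0.99 to 1.11) in replicate 3. The intervals of replicates 1 and 3 include 1 and that of replicate 2 does not. The mean log2 ratio was 0.18 ± 0.18 (SD, n = 3), and without replicate 2 it was 0.07. An exact two-sided sign-flip permutation test over libraries gave p = 0.25, the smallest that 3 libraries allow. The intervals cover counting error only.

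The pooled ratio hides a difference with length. Exons of 27 nt or less had 0.95, 0.87 and 0.87 times the expected number, below 1 in each library although each interval includes 1 (0.70 to 1.26, 0.65 to 1.16 and 0.72 to 1.05). Exons of 28 to 50 nt had 1.06, 1.35 and 1.07. To follow length in finer classes, up to and beyond 50 nt, coding internal exons of all canonical transcripts were each set against all other internal exons of their own transcript, short ones included, so these ratios are not on the scale of those above. The mean ratio was 0.624 ± 0.127 (SD, n = 3) for the 151 exons of 3 to 15 nt, which had only 3, 3 and 6 crosslinks. It was 0.909 ± 0.035 at 16 to 27 nt, 1.08 ± 0.18 at 28 to 36 nt, 1.08 ± 0.19 at 37 to 44 nt and 1.23 ± 0.13 at 45 to 50 nt. By library the ratio was 0.94, 1.29 and 1.02 at 28 to 36 nt and 0.97, 1.31 and 0.97 at 37 to 44 nt. The means above 1 in these 2 classes thus rested largely on replicate 2. At 45 to 50 nt the ratio was 1.17, 1.37 and 1.14. The mean continued past 50 nt. Beyond the limit that defined the set the mean ratio was 1.22 ± 0.19 at 51 to 60 nt and 1.1 ± 0.08 at 76 to 100 nt, and it came to 0.922 ± 0.068 at 201 to 300 nt. Exons of 48 to 50 nt, just inside the limit, had 1.23 ± 0.21, and exons of 51 to 53 nt, just outside, 1.31 ± 0.24. So 50 nt marked no step, and the classes from 45 to 75 nt overlapped in their spread.

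**Figure D1:**
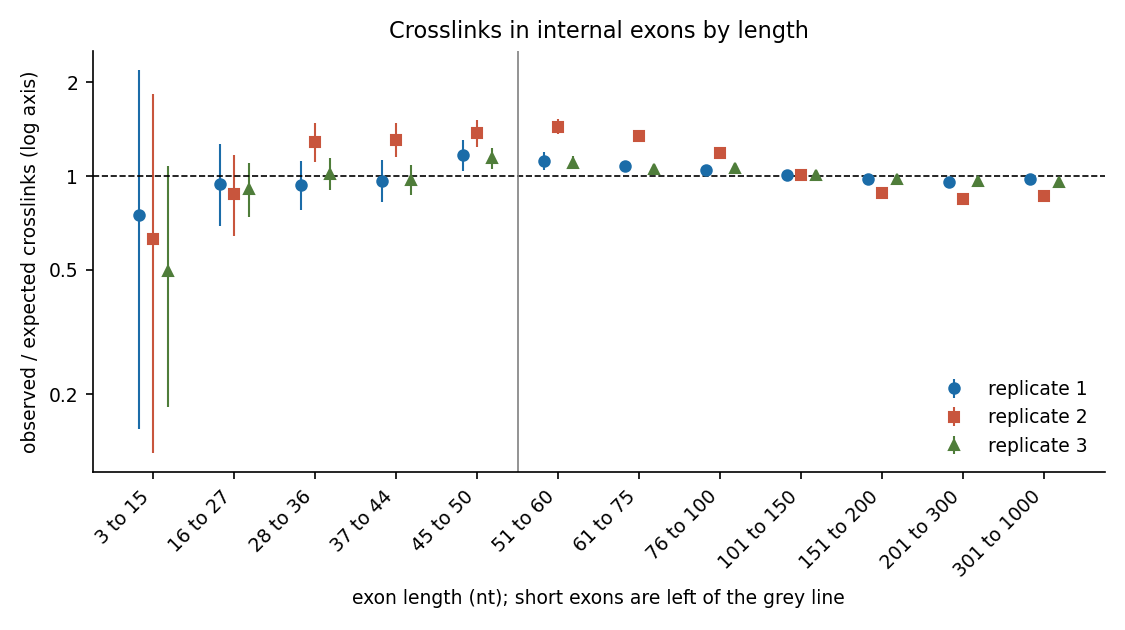
Observed over expected crosslinks (log axis) in coding internal exons of all canonical transcripts by length class (nt), with a point and 95% Poisson interval for each library. The short exons lie left of the grey line, the dashed line marks the level of all other internal exons of an exon's own transcript, and the classes below 28 nt lie below 1 in all 3 libraries while the class of 45 to 50 nt lies above it.

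Short exons also differed by sequence. In the 896 short exons with 3 or more GAA, crosslinks were 1.53 (1.31 to 1.77), 2.24 (1.98 to 2.52) and 1.44 (1.29 to 1.6) times the expected number, and all intervals lie above 1. With 2 GAA the ratios were 1.24, 1.70 and 0.99, with 1 GAA 0.91, 1.09 and 0.93, and in the 2231 exons without GAA 0.73, 0.63 and 0.96. The order from 0 to 3 or more GAA was complete in replicates 1 and 2, while in replicate 3 only the top class stood apart. Exons with any GAA exceeded those without by 0.71 ± 0.57 on the log2 scale (SD, n = 3; 0.67, 1.31 and 0.17 by library; 0.42 without replicate 2; exact sign-flip permutation p = 0.25, the smallest possible).

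The difference was present on both sides of 36 nt. Short exons of 36 nt or less had 1.07, 1.5 and 1.04 times the expected number with GAA and 0.74, 0.68 and 0.86 without. Those of 37 to 50 nt had 1.19, 1.57 and 1.09 with GAA and 0.73, 0.59 and 1.04 without. The contrast was in the same direction in each of the 6 pairs, and narrowest in replicate 3 at 37 to 50 nt.

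**Figure D2:**
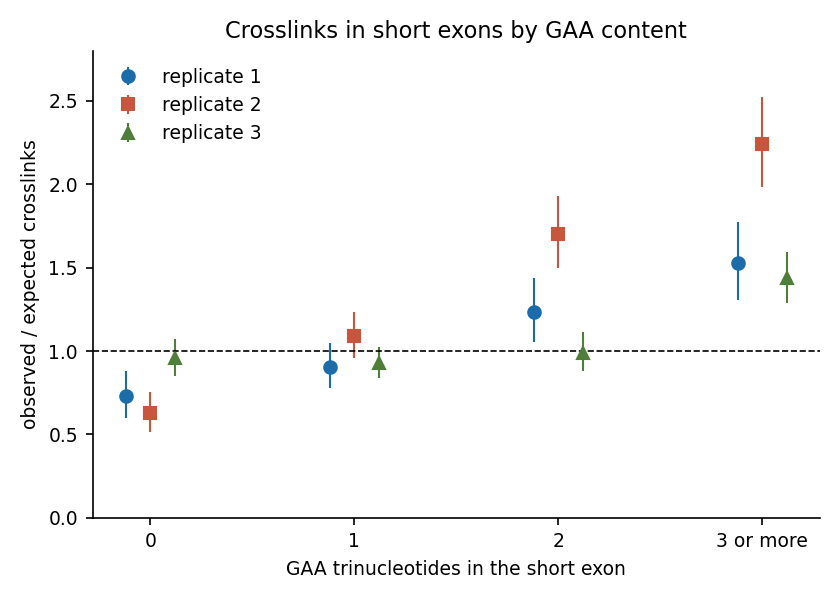
Observed over expected crosslinks in short exons by the number of GAA trinucleotides they hold, with a point and 95% Poisson interval for each library. Exons with 3 or more GAA reach 1.44 to 2.24 and exons without GAA 0.63 to 0.96.

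By purine content, the upper class stood apart but the others were not in order. Short exons with 60% purine or more had 1.24, 1.83 and 1.23 times the expected number, those between 50% and 60% had 0.84, 1.1 and 0.83, and those with 50% or less had 1.06, 0.80 and 1.04. From the upper to the lower class this was a log2 difference of 0.55 ± 0.56 (SD, n = 3) and of 0.23 without replicate 2 (exact permutation p = 0.25). Against all other internal exons of the transcript, the ratio at 70% purine or more was 1.24, 3.20 and 1.87 times that under 40% purine in short exons, 1.67, 3.58 and 1.31 times in exons of 51 to 100 nt and 1.99, 4.56 and 1.66 times in exons of 101 to 200 nt. Short exons under 40% purine had only 26, 17 and 30 crosslinks, with intervals on their ratios of 0.80 to 1.79, 0.38 to 1.05 and 0.50 to 1.06. The contrast for short exons is therefore imprecise. The range for short exons overlapped that for longer ones, and replicate 2 had the widest contrast in each class.

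Inside an exon, however, no concentration of crosslinks around GAA was seen with a window of 5 nt. In short exons with GAA, 54.8%, 52.6% and 50.6% of crosslinks lay within 5 nt of one, against 51.6%, 52.7% and 51.8% of positions when each exon's crosslinks are spread evenly, a ratio of 1.06, 1.00 and 0.98. They were fewer towards the end. With each exon cut into 3 equal parts, the first part held 40.8%, 35.2% and 38.8% of crosslinks, the middle 34.2%, 38.9% and 33.7% and the last 25%, 25.9% and 27.5%, where an even spread would give 34.1%, 33.4% and 32.5%. The first part was the highest in replicates 1 and 3 and the middle in replicate 2.

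The introns beside short exons were nearly empty. Density was 13.1, 11 and 19.4 times higher in the exon than in the 100 nt of intron on each side, a log2 ratio of 3.81 ± 0.42 (SD, n = 3; exact permutation p = 0.25). In the longer exons of the same transcripts it was 14.7, 10.4 and 20.02 times higher, and the log2 difference between the sets, -0.04 ± 0.12, was smaller than its spread over libraries and changed sign with the libraries and transcripts included. In this RNA of mixed cells, spliced and unspliced molecules occur together, and their amounts were not measured.

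One position assigned to the intron was different. The last nucleotide before the short exon had 3.83, 2.84 and 4.54 crosslinks per kb, like the exon itself, and the one before it 0.28, 0.85 and 1.14. At the other end, the last exon nucleotide had 0.28, 1.70 and 0.43 per kb, whereas the first had 3.55, 3.12 and 5.82. How the crosslinked nucleotide was assigned for cDNAs that begin at a splice junction is not given in the sources used here, so these edge positions cannot be read as contacts with intron or exon. Longer exons had the same edges, with 2.46, 1.87 and 5.40 per kb at the last intron nucleotide and 0.28, 1.78 and 0.33 at the last exon nucleotide. The upstream flank exceeded the downstream flank by 0.20 ± 0.12 on the log2 scale. With the 2 nt next to each splice site left out the difference was -0.08 ± 0.23 (-0.17, 0.18 and -0.24 by library). The excess thus rested on the edge in replicates 1 and 3, while replicate 2 kept part of it. Moving every exon window 1 nt upstream left the ratio to the longer exons at 0.20 ± 0.17.

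**Figure D3:**
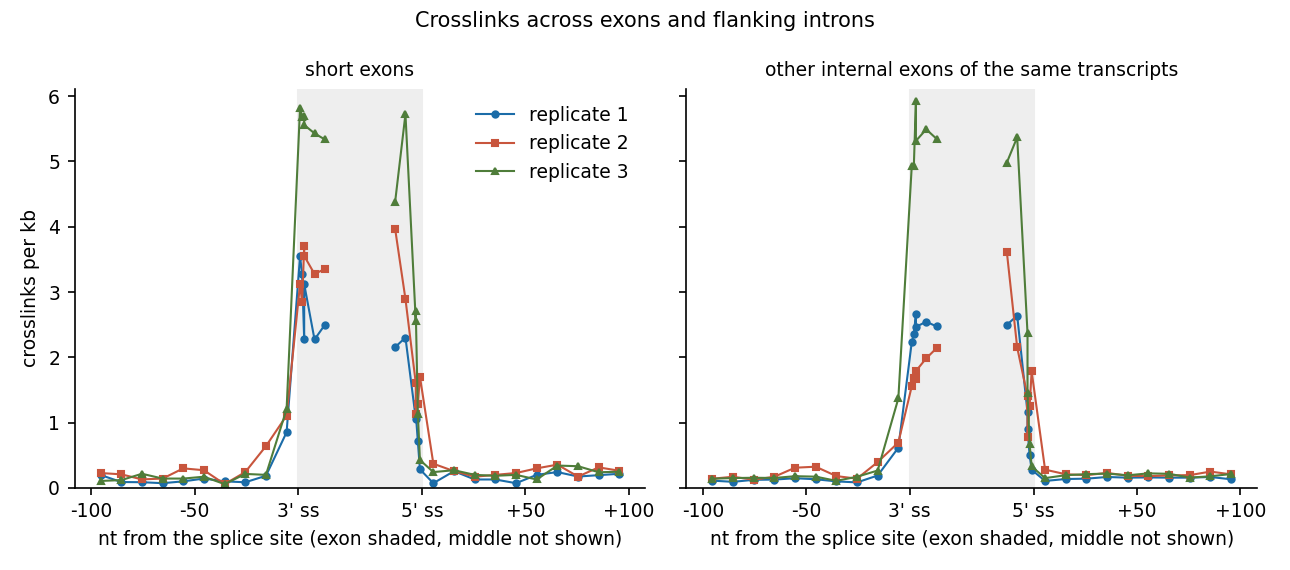
Crosslinks per kb across the flanking introns and both ends of the exon (shaded, drawn to 1 width, the middle not shown) for short exons and for the other internal exons of their transcripts, with a line for each library. Introns are shown in windows of 10 nt, exon ends in windows that narrow towards the splice site. Density falls to near 0.2 per kb in both introns, and the last exon nucleotide is low in replicates 1 and 3.

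The longer exon before a short exon had 1.07 (1.02 to 1.13), 1.24 (1.18 to 1.29) and 1.07 (1.03 to 1.11) times the crosslinks expected from its transcript, above 1 in each library. The one after it had 1.00, 1.17 and 0.96. Short exons that another annotated transcript skips had 0.98, 1.26 and 0.93 times the expected number, and those never skipped 1.11, 1.34 and 1.12. The log2 difference was -0.18 ± 0.08, lower for skipped exons in 3 of 3 libraries (exact permutation p = 0.25), and exon inclusion itself was not measured. For lengths divisible by 3 against other lengths the difference was -0.02 ± 0.10, with no settled direction.

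Single exons were compared with the other internal exons of their transcript by edgeR's quasi-likelihood test on raw counts, with exon length as an offset and library as a term. Of 39660 internal exons in transcripts with at least 20 crosslinks outside the exon, 0.477% were called higher and 0.199% lower at a Benjamini-Hochberg adjusted p under 0.05. Among them were 1343 short exons, of which 3 (0.223%) were called higher and 0 lower (44 and 21 at an unadjusted p under 0.05; an exact binomial test in each library called 0 in both directions). Among exons expected to have under 1 crosslink, 2 of 789 short exons (0.253%) and 4 of 8103 others (0.0494%) were called higher, at 1 to 2 expected 0 of 286 and 16 of 9355, at 2 to 5 expected 1 of 210 (0.476%) and 53 of 11926 (0.444%), and above this 0 of 58 and 113 of 8933. With 3 calls, no difference in share was read from these counts. The median short exon tested was expected to have 0.786 crosslinks over the 3 libraries, and at this depth no exon expected to have under 5, short or longer, was called lower.

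The 3 exons called higher were *Pcbp3* exon 5, *Pcbp2* exon 4 and *Potefam1* exon 64, and the first pair are counterparts. *Pcbp2* and *Pcbp3* encode poly(C)-binding proteins, KH domain proteins that act in splicing, RNA stability and translation, and the 33-nt exon lies in the part that encodes the first KH domain. *Pcbp2* exon 4 (chr15:102382682-102382714, plus strand) had 3, 3 and 3 crosslinks, while 975 nt of its other internal exons had 6, 3 and 17. *Pcbp3* exon 5 (chr10:76634461-76634493, minus strand) had 1, 6 and 4, and 1238 nt of its other internal exons had 4, 12 and 13. The exon was denser than the rest of its transcript in each library. The log2 ratio was 3.38 ± 0.90 (SE; edgeR adjusted p = 0.0316) for *Pcbp2* and 3.78 ± 0.84 (adjusted p = 0.0025) for *Pcbp3*, and neither exon had a crosslink in its flanks.

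The 2 exons are identical at 28 of 33 nt, hold 2 and 3 GAA and are 75.8% and 84.8% purine, and each occurs once in the genome. In both genes a 24-nt exon comes just before. In *Pcbp3* it had 0, 5 and 2 crosslinks against 0.635 expected in all, and in *Pcbp2* 1, 0 and 0 against 0.829. The third gene of this layout, *Pcbp4*, had 0 crosslinks in its 33-nt exon, but only 0.277 were expected there, so nothing could be seen at this depth. The counts are small: without replicate 1, 2 or 3 the log2 ratio was 2.92 to 4.24 for *Pcbp2* and 3.42 to 3.97 for *Pcbp3*, and neither passed the threshold in any of these fits.

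*Potefam1* exon 64 of 73 (47 nt, chr2:110902615-110902661, minus strand) had 6, 5 and 11 crosslinks, and the 6683 nt of its other internal exons had 151, 133 and 338. Its log2 ratio was 2.35 ± 0.50 (SE; adjusted p = 0.00135). It holds 4 GAA. The gene has 15 short exons of 29 to 49 nt, and those other than exon 64 had at most 8 crosslinks each. This call was kept without replicate 2 and lost without replicate 1 or 3. Just past the threshold lay a 33-nt exon of *Srrm2*, which encodes a large SR-related protein of the spliceosome. Exon 7 had 1, 7 and 2 crosslinks (1.78 expected in all), with a log2 ratio of 2.46 ± 0.71 and an adjusted p of 0.0613 by edgeR; it was chosen for mention after its value was seen.

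**Figure D4:**
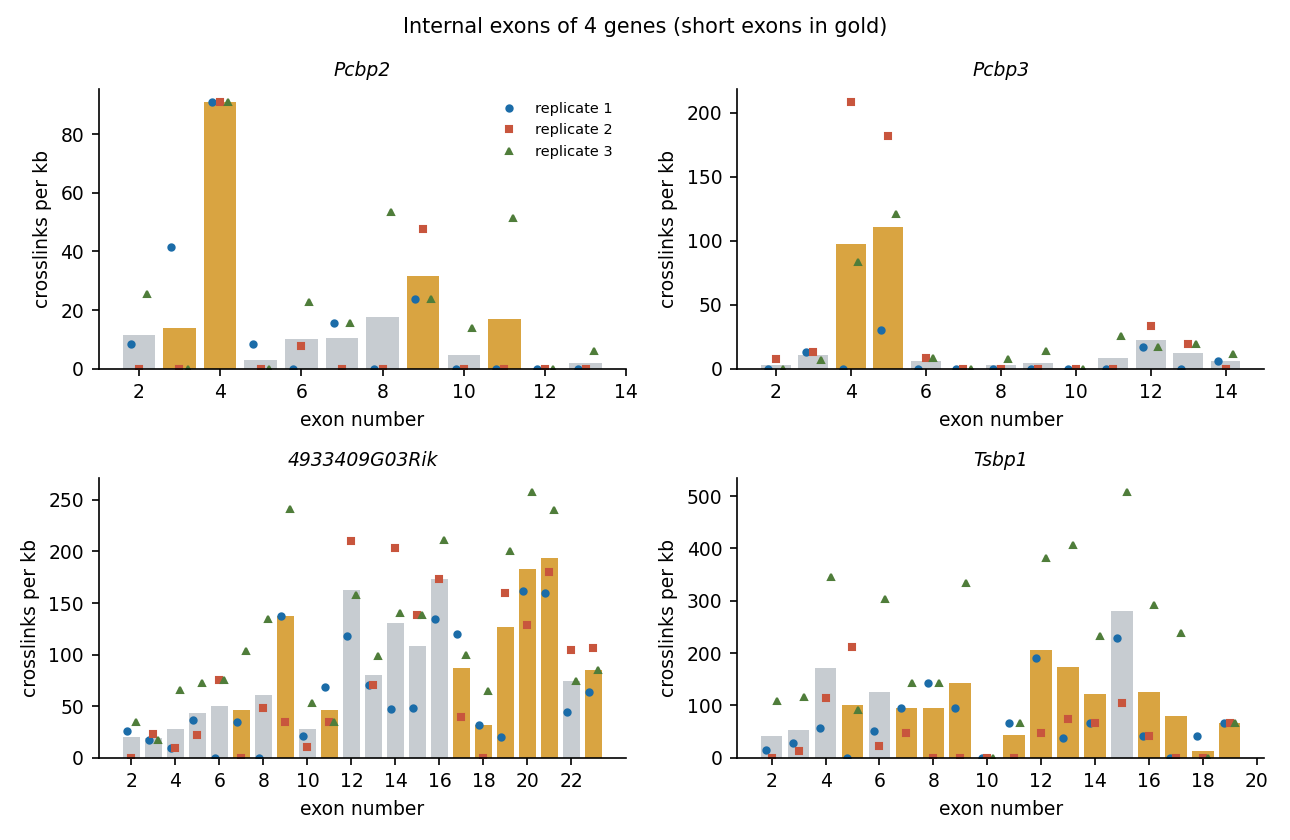
Crosslinks per kb in each internal exon of *Pcbp2*, *Pcbp3*, *4933409G03Rik* and *Tsbp1*, in order along the transcript. Bars are means of 3 libraries, points are libraries, and short exons are gold; *Pcbp2* exon 4 stands at 90.9 per kb in all 3 libraries, and in *Pcbp3* exons 4 and 5 are the highest.

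By number of crosslinks, *1700019A02Rik* exon 3 (50 nt, chr1:53221654-53221703, minus strand) came first with 8, 7 and 30 crosslinks, where its other internal exons had 28, 18 and 54 in 281 nt. It holds 7 GAA, more than any other exon named here. The log2 ratio to its transcript was 1.25 ± 0.43 (SE), which did not pass the test (edgeR adjusted p = 0.241).

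*Nasp* encodes a histone chaperone abundant in testis, and its exon 2 (48 nt, chr4:116479964-116480011, minus strand) had 12, 5 and 23 crosslinks. The 2137 nt of its other internal exons had 330, 195 and 696, so that the ratio was 0.53 ± 0.38 on the log2 scale (adjusted p = 0.878 by edgeR). With 1 GAA and 52.1% purine, it was the least purine-rich of the 12 exons with the most crosslinks. *Ddx4*, the germ cell RNA helicase also called Vasa, has 3 short exons, and its exon 12 (48 nt, chr13:112759192-112759239, minus strand) had 6, 2 and 9 crosslinks with 4 GAA and none in its flanks.

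*Hook1*, a microtubule-binding protein needed for sperm head shape, had 8, 4 and 8 crosslinks in its 35-nt exon 17, where 18 were expected over the libraries. In the 48-nt exon 6 of *Iqcf3*, an IQ motif gene, there were 2, 4 and 13 where 31.7 were expected (log2 -0.69 ± 0.50, adjusted p = 0.878 by edgeR). *Sltm*, an SAFB-like nuclear protein, had 2, 9 and 6 in its 48-nt exon 5 (4 GAA) and *Spata31f3* had 4, 2 and 10 in its 46-nt exon 2. The 12 exons were 52.1% to 74.2% purine and each held 1 to 7 GAA. These exons lie in transcripts with many crosslinks elsewhere, and of the 12 only *Potefam1* exon 64 was called higher than its own transcript by the test. Not being called does not mean matching the transcript. *Ddx4* exon 12 had 17 crosslinks against 5.81 expected in all, *Sltm* exon 5 had 17 against 6.6 and *4933409G03Rik* exon 21 had 29 against 10.9, while *Iqcf3* exon 6 lay below its expected number.

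**Figure D5:**
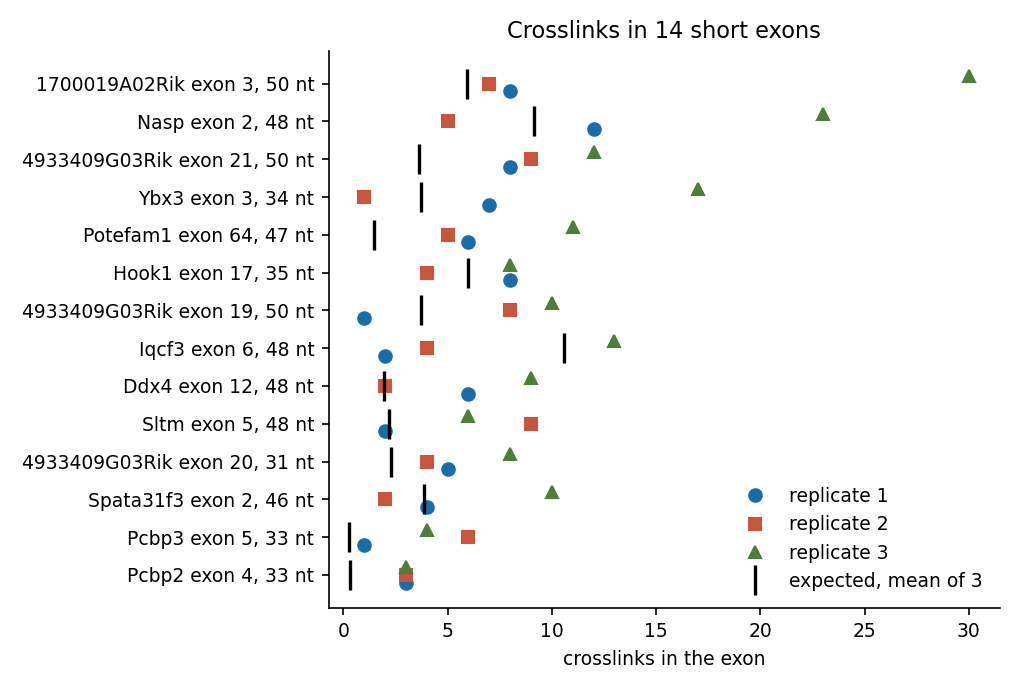
Crosslinks per library in the 12 short exons with the most crosslinks and in the *Pcbp2* and *Pcbp3* exons, with the number expected per library from the other internal exons of the transcript (black bar, mean of 3). Replicate 3 is the highest in 10 of the 14 exons. In *Iqcf3* the mean expected level lies above 2 of 3 libraries, but the expected number differs between libraries, so the bar cannot be set against a single library.

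The Y-box proteins gave the second pair of counterparts. *Ybx1* and *Ybx3* encode cold shock domain proteins that bind mRNA, and a 34-nt exon 3 encodes part of that domain in both. *Ybx3* exon 3 (chr6:131360464-131360497, minus strand) had 7, 1 and 17 crosslinks against 11.1 expected in all, and *Ybx1* exon 3 (chr4:119142306-119142339, minus strand) had 3, 1 and 10 against 3.88. The log2 ratios were 1.15 ± 0.50 and 1.92 ± 0.68, and neither passed the test (edgeR adjusted p = 0.545 and 0.268). The 2 exons agree at 30 of 34 nt. The *Ybx1* sequence occurs 3 times in the genome, so its count depends on how reads with several matches were placed. The third member, *Ybx2*, a germ cell mRNA-storage protein, had 2, 1 and 1 in its own 34-nt exon (2.7 expected). *Ybx1* and the 24-nt *Pcbp* exons were added after their values were seen.

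Some genes carry runs of short exons. *4933409G03Rik* has 9, of 29 to 50 nt, and all 9 had crosslinks, 31, 30 and 52 in sum or 3.99% of all crosslinks in short exons. Their density was 89.6, 86.7 and 150 per kb, against 39.2, 73.7 and 89.9 in the 13 longer internal exons, higher in 3 of 3 libraries. Exons 19, 20 and 21 (50, 31 and 50 nt) had 1, 8 and 10, then 5, 4 and 8, then 8, 9 and 12 crosslinks. This gene was picked for having the most crosslinks in short exons, and other runs differed. In *Gm45861*, with 10 short exons, they had 27.1, 30.5 and 57.6 per kb against 30.1, 39 and 63.6 in the longer ones, lower in 3 of 3 libraries. In *Potefam1*, with 15, it was 24.8, 24.8 and 58 against 23.2, 20.2 and 51.4. In *Tsbp1*, a testis-expressed gene for a basic protein, 13 of 18 internal exons measure 12 to 33 nt. They had 63.2, 52.6 and 196 crosslinks per kb and the 5 longer ones 49.4, 32.4 and 210, so that the density was about equal in replicate 3 and higher in short exons in the others. Over all genes, the 10 with the most crosslinks in short exons held 17.5% of them, and 956 genes had at least 1.

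The shortest exons with a crosslink in every library show how far down contacts could be seen. *Tsbp1* exon 19 measures 15 nt and had 1, 1 and 1, against 4.49 expected in all, but its 15 letters occur 18 times in the genome. *Stat4*, an interferon and interleukin signalling factor, had 1, 1 and 1 in its 18-nt exon 12, all at nucleotide 7. Of 21 nt each, *Tsbp1* exons 7 and 12 had 2, 1 and 3 and 4, 1 and 8, and *Ccdc7b* exon 5 had 1, 1 and 2. *Tsbp1* exon 12 contains no GAA and is 47.6% purine, and had 13 crosslinks in 21 nt with 2 in its flanks.

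Compared with their own flanks, 55 of the 1343 short exons (4.10%) were called higher by edgeR (adjusted p under 0.05), against 5.92% of all internal exons, and 0 were called lower (0% of all; 0 at an unadjusted p under 0.05 and 0 by the binomial test). Only 841 of the 1343 had a crosslink in the exon or its flanks, and exons without one got no p-value. They count as not called in every share given here, so the shares also depend on how many exons held a crosslink. The share was 3.45% at 27 nt or less and 4.19% at 28 to 50 nt. It was 5.35% to 6.07% in the classes from 51 to 300 nt and 10.04% above 300 nt. The 55 exons lie in 40 genes, 7 of them in *Tsbp1* and 6 in *4933409G03Rik*; they measured 21 nt or more, had 6 to 45 crosslinks, and 22 had no crosslink in the flanks. GAA was present in 47 of them (85.5%), against 72.4% of the 1343 short exons, with or without a crosslink. Of the 1233 short exons with a crosslink, tested or not, 77.6% held GAA. The median length was 43 nt both for these and for the 55 called exons. The lowest adjusted p were 3.42e-08 for *Nasp* exon 2 (40 crosslinks, 2 in the flanks), 5.99e-08 for *1700019A02Rik* exon 3 (45 and 3), 1.76e-06 for *4933409G03Rik* exon 21 (29 and 2), 2.31e-06 for *Ybx3* exon 3 (25 and 1) and 5.63e-05 for *Potefam1* exon 64 (22 and 2). The number of calls dropped to 0 without replicate 1 and without replicate 3, and to 29 without replicate 2.

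Other short exons had none in transcripts with many crosslinks. *Spata6*, a gene for the sperm connecting piece, had 0 in its 49-nt exon 3 (chr4:111604952-111605000, plus strand) where 7.23 were expected over the libraries, and a count of 0 allows up to 3. *Srsf11*, an SR-related splicing factor, had 0 in its 50-nt exon 6 with 5.33 expected. In *Rb1cc1*, an autophagy gene, exon 19 had 0 with 4.86 expected, although it holds 4 GAA and is 65.3% purine. Exon 10 of *Ap3d1*, a subunit of the AP-3 sorting adaptor, has no GAA and 40% purine, and exon 13 of *Pias2*, a SUMO ligase gene, is 28.9% purine; both had 0, with 4.2 and 4.17 expected. These 5 were picked for their count of 0, and none passed the test (edgeR adjusted p from 0.191 to 0.532).

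Gene groups were described by how many of their short exons had a crosslink and by observed over expected. Collagen genes hold the most short exons, 438 in 41 genes, because their triple helix is encoded by many small in-frame exons; 36 (8.22%) had a crosslink, below the 17.5% of all short exons, and observed over expected was 1.88, 1.74 and 1.25 from 7, 48 and 6 crosslinks. Most of the collagen crosslinks thus came from replicate 2: *Col16a1* alone had 1, 23 and 1. Cilia and flagella genes had crosslinks in 23 of 42 short exons and ratios of 0.50, 1.84 and 0.96. Meiotic chromosome genes had them in 18 of 42, with ratios of 1.23, 0.86 and 1.31, and splicing factor genes in 25 of 64, with 1.15, 1.07 and 0.87.

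Genes known for neuronal microexons had crosslinks in 4 of 39 short exons and kinesin genes in 5 of 26. Only 3 short exons belong to axonemal dynein heavy chain genes, the motor proteins of cilia and flagella, and 1 of these had a crosslink. No exon of the 7 groups was called higher or lower than its transcript by edgeR, where 0.223% of all short exons tested and 0.477% of all internal exons were called higher, so that a call was hardly to be expected in groups of 3 to 46 tested exons. Called higher than their flanks were 1 of 32 tested exons of the cilia and flagella group (*Ift74* exon 12), 2 of 24 of the meiotic chromosome group (*Sycp2* exon 31 and *Syce1* exon 5) and 2 of 29 of the splicing factor group (*Srrm2* exon 7 and *Srsf7* exon 7), named after their calls were seen. These counts lie near the 4.10% of all short exons tested and the 5.92% of all internal exons. All of these shares include exons that held no crosslink in exon or flanks and so could not be called. Collagens aside (1.62 ± 0.33), the mean ratio of each group lay within 1 SD of its own libraries from the 1.14 ± 0.15 (SD, n = 3) of all short exons.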

How the data were processed

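Tra2β iCLIP was analysed in 3 libraries of 1 group. The deposited values were raw counts of unique cDNAs for each nucleotide and strand, made by the authors with the iMAPS pipeline and not normalised or pooled. The submitters' processing notes name Trim Galore 0.6.7, Bowtie 1.3.1, STAR 2.7.9a and UMI-tools 1.1.2, and the build mm39; all positions lie within the chromosomes of GRCm39. The placement of reads with several matches is not given in the sources used here. A read over a short exon of spliced RNA can cross 2 splice junctions, and the effect of this on counts was not tested. Random barcodes were used, so the counts are close to molecules.

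Exons came from the canonical transcripts of GENCODE vM39, and 1420 copies with the same coordinates were dropped. Of the short exons, 326 share their sequence with another internal exon and 39 had no longer internal exon as a reference. An exon was called skipped where an intron of another transcript of the gene spans it. Crosslinks were summed on the strand of the gene. Intervals are 95% exact Poisson intervals and cover counting error only. Means and SD are over 3 libraries, with exact two-sided sign-flip permutation tests. Single exons were tested with edgeR 4.0.16 (R 4.3.3) on counts in exon and reference in each library. The minimum was 20 crosslinks in the other internal exons. Benjamini-Hochberg adjustment was over all 39660 exons, and in the flank test over those with a crosslink in exon or flanks. In the single-exon test, in the fine length classes and in the purine classes compared across lengths, the reference holds all other internal exons, short ones included. Other steps used Python 3.11.15, pandas 2.3.3 and scipy 1.17.1.

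Exons are named by rule: the 12 with most crosslinks among those crosslinked in all libraries, up to 12 called higher than their transcript by fold, 5 called lower (there were none), the 5 shortest crosslinked in all libraries, the 5 without crosslink with the highest expected number and the 5 called higher than their flanks with the lowest adjusted p. The members and lists were chosen with earlier results of these data known. The study describes the 3 libraries as biological triplicates; the animals behind each are not given in the labels.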

Additional observations from a re-analysis of the deposited data

How the results depend on the processing

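Of 84 recalculations of the ratios and counts above, 69 were counted as kept. A ratio was kept if it held direction and moved by less than its SD over libraries, and a count if it was similar. Leaving out a replicate cannot move a mean over 3 libraries by its SD, so such recalculations of ratios could only keep or reverse direction. The fall from 0.71 to 0.42 for GAA without replicate 2 is thus counted as kept. Similar counts include 40 and 47 short exons called over their flanks where the main fit had 55. Lower calls stayed at 0 throughout, which says little at this depth. Of 21 recalculations of the *Pcbp2*, *Pcbp3* and *Potefam1* calls, 11 lost the call. The mean log2 ratio of short exons to the longer exons of their transcripts stayed between 0.07 and 0.26 except for exons of 27 nt or less, where it was -0.15. The highest value came with the last 5 nt of every exon left out, which like the move of exon windows by 1 nt was chosen after seeing the data, and the lowest without replicate 2. The difference by length divisible by 3 was 0.011 with each position counted once and -0.070 to 0.031 with a replicate left out. That in exon over flank between short and longer exons was 0.047 without the 10 most crosslinked transcripts and -0.11 to 0.016 with a replicate left out. The upstream over downstream ratio was -0.077 without the 2 nt next to splice sites. Short exons called higher than their transcript numbered 0 by an exact binomial test in each library and 0 to 1 with a replicate left out; those called higher than their flanks numbered 3 and 0 to 29. Exon and reference share a library, which was the block in the main fit; with no replicate block the counts were 3 and 136. The causes were not tested. Depth limits the calls: 5809 short exons had no crosslink in any library, and the absence of a call at these counts does not show that an exon was contacted like its transcript.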
